A study of Drosophila melanogaster with 14 samples.

Results

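The nuclear transfer RNA (tRNA) genes of Drosophila melanogaster were taken as all annotated genes of biotype tRNA on chromosomes 2L, 2R, 3L, 3R, 4 and X, which gave 290 of 312 annotated tRNA genes. The other 22 lie on the mitochondrial genome. They were read through the 10 kb bin that holds each gene, with genes of a cluster counted once per bin, which gave 156 of the 13745 bins tested. The study measured when DNA replicates by Repli-seq, in which cells take up BrdU, nuclei are sorted by DNA content into S-phase fractions, and the newly made DNA is precipitated and sequenced. Nuclei carrying a GFP-tagged histone H3 came from testis tumours of 2 genotypes, each with 2 biological replicates, and were sorted into 4 fractions of S phase that run from early (E) through early-mid (EM) and late-mid (ML) to late (L). The replicates are called GSC1 and GSC2, for the GSC-like tumours, and CySC1 and CySC2, for the CySC-like tumours. The 14 libraries used here hold all 4 fractions of 3 replicates and the E and L fractions of CySC1, whose EM and ML fractions were not analysed here. In CySC2 the library labelled ML went against its label. Across 11337 bins of the chromosome arms, which are not independent, log2 signal in the library labelled EM correlated at 0.54 with E and 0.85 with L, and in the library labelled ML at 0.80 with E and 0.36 with L. In GSC1 ML went the other way, at 0.20 with E and 0.68 with L, as in GSC2 at -0.45 and 0.48. As in CySC2, EM correlated more with L than with E, at 0.53 against 0.48 in GSC1 and 0.66 against 0.47 in GSC2. The order of these 2 CySC2 libraries is therefore in doubt, and log2(E/L) uses neither.

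The GSC-like group carried y[1] w[1118] and P{hs70FLP}, with the germline driver P{w[+mC]=GAL4::VP16-nanos.UTR} opposite a UAS - Upd transgene. The CySC-like group was w[1118], with the traffic Jam - GAL4 driver of the cyst lineage opposite the same Upd transgene. Both groups overexpressed the Unpaired ligand and both carried one copy of UAS-FRT-H3-GFP-FRT-H3-mKO, so no wild-type testis stands beside them. Each preparation pooled 100 to 200 pairs of testes incubated for 15 minutes with 100 mM BrdU, and flies were kept at 25 °C. GSC-like resembles germline stem cells and CySC-like resembles the somatic cyst stem cells that accompany them. These libraries hold genomic DNA, so the cell type labels could not be checked against marker expression. A bin's value is an average over sorted nuclei, and a bin replicated at 1 time in all nuclei cannot be told apart from a mixture of early and late nuclei.

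Transfer RNA genes are short and are transcribed by RNA polymerase III from promoters inside the gene. These are an A box and a B box, which bind the factor TFIIIC. In budding yeast, replication forks slow or pause at transcribed tRNA genes. In many animals, fly included, early replication goes together with gene-rich, transcribed chromatin, and late replication with silent chromatin. Timing is given here per 10 kb bin as log2(E/L), which compares the early with the late library of a replicate once both are rescaled to the same mean. A value above 0 means more signal in E than in L. Its zero rests on that scaling, so differences between bins of the same replicate are given first and counts of bins past a test after them.

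The B box, an internal promoter element named above, is shown for genes whose bins carry the findings below. Each line gives 20 bases of RefSeq's Release 6 sequence on the gene's strand, 5′ to 3′, with the 11 bases of the B box in capitals. The genes are Cys-GCA-1-1 at chr3L:3095737-3095808 (+), in the earliest tRNA bin of GSC-like, and Lys-TTT-2-5 at chr3R:12131355-12131427 (+), in the latest of both cell types. Gln-TTG-1-1 at chr3L:11801471-11801542 (-), Pro-AGG-1-2 at chr2L:14598859-14598930 (+) and Asp-GTC-1-10 at chr3L:13249547-13249618 (+) are in the bins that differed most between cell types. Leu-TAA-3-1 at chr2L:15132306-15132389 (-) and Leu-TAA-4-1 at chr3R:24265259-24265342 (+) decode the same codon from bins of unlike timing.
tRNA:Cys-GCA-1-1: ccccGGTTCAAACCCgggtg
tRNA:Lys-TTT-2-5: ccagGGTTCAAGTCCctgtt
tRNA:Gln-TTG-1-1: tccgAGTTCAAATCTcggta
tRNA:Pro-AGG-1-2: cccgGGTTCAAATCCcggac
tRNA:Asp-GTC-1-10: ccggGGTTCAATTCCccgtc
tRNA:Leu-TAA-3-1: cgtgGGTTCGAGTCCcacac
tRNA:Leu-TAA-4-1: cgtgGGTTCGAACCCcacac
The motif GTTCNANNC, searched on the gene's strand, was in 271 of the 290 genes and in 1.04% of consecutive 73-base stretches of the 5 chromosome arms. The 11 bases most frequent at this place, GGTTCGAATCC, which contain the motif and were found in 43 genes, were searched on both strands of whole bins. They were in 25 of the 156 tRNA bins and 0.222% of the 13087 other bins of these arms. The 25 tRNA bins that hold the longer form averaged 0.31, 0.99, 0.41 and 0.40 in the 4 replicates (GSC1, GSC2, CySC1 and CySC2, the order used throughout), and the 131 tRNA bins without it 0.36, 0.85, 0.29 and 0.35. Values of both sets overlapped widely. The 29 other bins with the longer form averaged 0.27, 0.47, 0.02 and 0.05.

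The tRNA genes were spread unevenly: 98 lay on 2R, 79 on 3R, 48 on 3L, 41 on 2L and 24 on X, and 0 on chromosome 4. They filled 44 bins on 2R, 43 on 3R, 29 on 2L, 26 on 3L and 14 on X, and 0 of these bins were pericentromeric. Of the 156 bins, 85 held 1 tRNA gene, 43 held 2 and 28 held 3 or more, up to 9 in a bin. Of the 290 genes, 156 lay between coding genes, 127 in an intron of a coding gene and 7 over an exon. Where the gene lay inside a coding gene, 75 ran on the strand opposite to the host, 52 on the same strand and 7 had hosts on both strands. The median gene was 73 bases long, 16 genes had an intron of their own, and 238 of 290 had at least 1 identical copy elsewhere, so that there were 95 distinct sequences. Reads from identical copies cannot be placed on 1 copy, and how the authors treated them is not given in the sources used here. A gene covers a small part of its 10 kb bin, most of whose reads come from neighbouring sequence.

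Bins with tRNA genes were on average earlier than the rest of their chromosomes in each of the 4 replicates. Their mean log2(E/L) exceeded that of the other bins of the same chromosome by 0.32 in GSC1, 0.55 in GSC2, 0.45 in CySC1 and 0.36 in CySC2. By cell type the excess was 0.44 ± 0.16 (SD, n = 2) in GSC-like and 0.40 ± 0.06 (SD, n = 2) in CySC-like, and the replicates of the cell types overlapped. These means are given as a description, with no test. Pericentromeric bins, which hold no tRNA gene, made part of it: with them left out the excess was 0.28 ± 0.10 (SD, n = 2) in GSC-like and 0.25 ± 0.03 (SD, n = 2) in CySC-like. The median tRNA bin stood at the 66.9th percentile of all bins in GSC1, at the 62.5th in GSC2, at the 61.5th in CySC1 and at the 67.6th in CySC2.

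The family was far from uniform. Single tRNA bins ran from -1.55 to 1.87 in GSC1 and from -2.28 to 2.69 in GSC2. In CySC-like they ran from -2.45 to 1.82 in replicate 1 and from -2.01 to 1.47 in replicate 2. The earliest 25% of all bins held 42.9%, 37.8%, 34.6% and 38.5% of tRNA bins in the 4 replicates, and the latest 25% held 9.6%, 11.5%, 10.3% and 9.0%. Of the 156 tRNA bins, 83 (53.2%) were above 0 in all 4 replicates, against 31.8% of all bins and 37.2% of those on the chromosome arms, and 12 (7.69%) were below 0 in all 4, against 24.3% of all bins and 15.8% of arm bins.

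**Figure D1:**
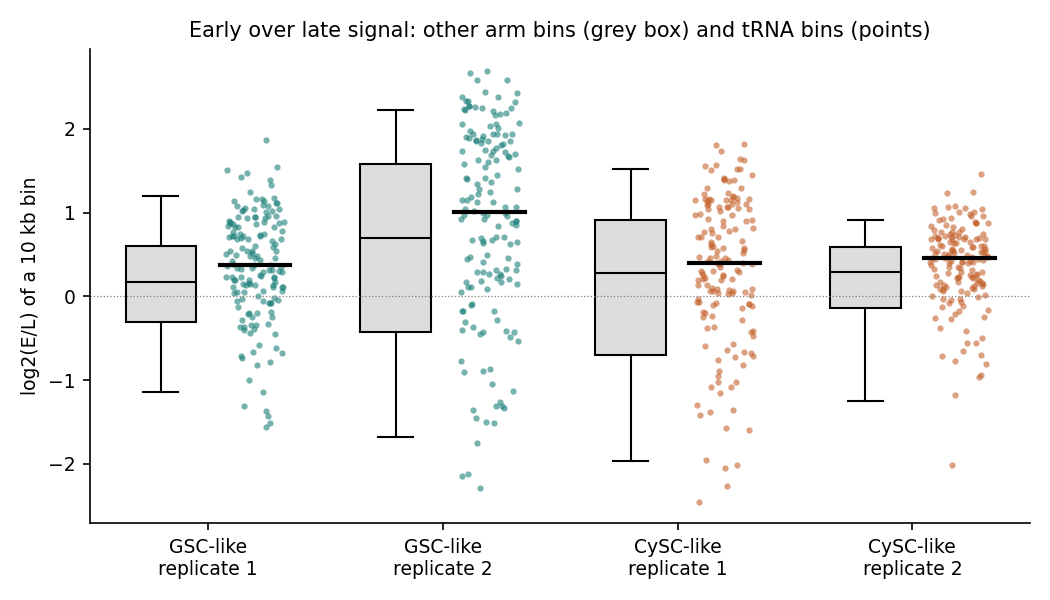
Log2 ratio of early to late signal in 10 kb bins, for each biological replicate. Grey boxes give the quartiles and median of the 11181 other arm bins with whiskers at the 5th and 95th percentiles, and points are the 156 tRNA bins with their median as a black bar. The tRNA medians are 0.38, 1.01, 0.40 and 0.45, above the other arm bins' 0.17, 0.69, 0.27 and 0.30, while late tRNA bins reach as low as -2.45.

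The excess was also local. Against their own neighbourhood, the bins 20 to 50 kb away on either side that hold no tRNA gene, tRNA bins were earlier by 0.12 in GSC1, 0.22 in GSC2, 0.20 in CySC1 and 0.12 in CySC2. That is 0.17 ± 0.07 (SD, n = 2) in GSC-like and 0.16 ± 0.05 (SD, n = 2) in CySC-like, while the remaining bins differed from their neighbourhood by 0.00 on average. In single replicates, 93, 107, 101 and 106 of the 156 tRNA bins were above their flanks, against 48.5%, 52.1%, 50.5% and 51.5% of all bins. The same bins were above their flanks in all 4 replicates in 50 cases (32.1%), against 13.7% of all bins, and below them in all 4 in 13 cases (8.33%), against 13.2%.

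Averaged by distance from the tRNA gene, log2(E/L) was highest at the gene itself in all 4 replicates, at 0.34 and 0.90 in GSC-like, against 0.33 and 0.39 in CySC-like. It fell on both sides, to 0.18 and 0.15 in GSC1, 0.49 and 0.50 in GSC2, 0.14 and 0.05 in CySC1 and 0.18 and 0.19 in CySC2 at 100 kb before and after the gene. The rise was far wider than a tRNA gene. The mean signal of the E and L libraries showed no such rise, with a mean log2 level of 2.47 at the gene and 2.45 and 2.47 at 100 kb before and after it.

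**Figure D2:**
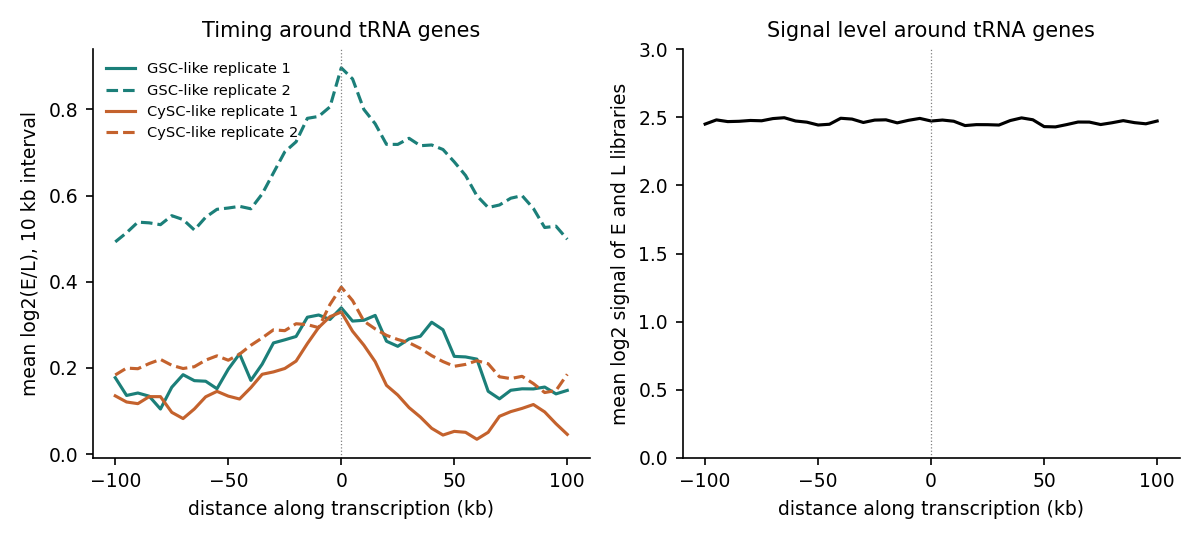
Mean values around the 156 sites (1 per tRNA bin) in 10 kb intervals every 5 kb, with distance in kb along the direction of tRNA transcription. Left, log2 ratio of early to late signal for each replicate, which is highest at distance 0 in all 4 (0.34, 0.90, 0.33 and 0.39). Right, mean log2 signal of the E and L libraries on an axis from 0, which stays near 2.5 throughout.

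Coding gene density was set beside the timing because bins dense in coding genes replicated early. The tRNA bins held 1.13 ± 1.35 coding gene starts (SD over 156 bins) against 1.20 ± 1.52 in the 11181 other arm bins, and their GC content was 42.1% against 42.6%. Compared with arm bins of the same number of coding starts, tRNA bins were earlier by 0.23, 0.35, 0.25 and 0.22 in the 4 replicates. The 68 tRNA bins without a coding start averaged 0.21, 0.54, 0.20 and 0.26, against -0.02, 0.15, -0.14 and 0.02 in the 5112 other such arm bins. With 3 coding starts, the 20 tRNA bins averaged 0.53, 1.19, 0.32 and 0.40, against 0.37, 1.16, 0.43 and 0.32, so that CySC1 ran the other way. The 9 tRNA bins with 4 or more averaged 0.57, 1.40, 0.37 and 0.69, against 0.44, 1.34, 0.53 and 0.36. Set against other bins that hold a coding gene start, tRNA bins as a whole exceeded them by 0.077 ± 0.037 (SD, n = 2) in GSC-like and by 0.134 ± 0.004 (SD, n = 2) in CySC-like.

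The excess differed by chromosome. On 3R it was 0.22, 0.57, 0.44 and 0.38 in the 4 replicates, on 3L 0.40, 0.41, 0.29 and 0.23, and on 2R 0.15, 0.46, 0.27 and 0.22. It was smaller on 2L, at 0.21, -0.04, 0.20 and 0.11, and near 0 on X, at 0.08, 0.08, -0.06 and 0.04. The 14 bins on X and the 29 on 2L give these values less precision than the others, and the differences between chromosomes were not tested. Bins with several tRNA genes averaged higher than bins with 1 in CySC-like: 85 bins with 1 gene averaged 0.09 and 0.25, 43 bins with 2 averaged 0.59 and 0.49, and 28 bins with 3 or more averaged 0.55 and 0.49. In GSC-like the same classes averaged 0.32, 0.41 and 0.36 in replicate 1 and 0.72, 1.01 and 1.13 in replicate 2. Bins whose tRNA genes all lay inside coding genes averaged 0.44, 1.07, 0.36 and 0.47 (72 bins), and those whose genes all lay between coding genes 0.27, 0.67, 0.21 and 0.26 (78 bins).

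A test of each bin's log2(E/L) against 0 asked which tRNA genes replicated early or late in each cell type. With limma fitted over all 13745 bins and a Benjamini-Hochberg adjusted p under 0.05, 57 of the 156 tRNA bins (36.5%) had more signal in E in the GSC-like tumours, against 17.9% of all bins and 20.2% of arm bins. In the same cell type 7 (4.49%) were higher in L, against 12.4% of all bins and 8.19% of arm bins. The 57 early bins had log2(E/L) from 0.81 to 1.82 with a median of 1.32, and the 7 late bins from -1.90 to -1.20. In CySC-like 2 tRNA bins (1.28%) were higher in E, against 0.989% of all bins, and 5 (3.21%) were higher in L, against 10.2% of all bins and 8% of arm bins. At an unadjusted p under 0.05 in limma, 73 tRNA bins were on the E side in GSC-like (against 28.8% of all bins) and 11 on the L side (against 17.5%), with 34 (against 11.2%) and 8 (against 19.3%) in CySC-like. By limma's adjusted p, the 57 early GSC-like bins were 23 of 44 tRNA bins on 2R (against 26.1% of its arm bins), 18 of 43 on 3R (against 21.6%), 9 of 26 on 3L (against 19.7%), 4 of 14 on X (against 15.96%) and 3 of 29 on 2L (against 18.1%). The counts depended on scaling and pairing: with libraries scaled by their median bin, the GSC-like split was 8 higher in E (against 2.35% of all bins) and 11 higher in L (against 18.6%), scaled on autosomal arm bins it was 15 (against 3.97%) and 13 (against 20.4%), and with E and L not paired by replicate both were 0. They were also 0 without GSC2, without CySC1 and without CySC2, and 69 and 8 without GSC1 (against 31.5% and 13.7% of all bins). The CySC-like counts were 25 (against 7.1% of all bins) and 8 (against 16.1%) with either GSC-like replicate left out, and 0 and 0, as over all bins, with either CySC-like replicate left out. With limma voom on recovered reads, 37 tRNA bins were higher in E in CySC-like (against 13.5% of all bins) and 8 higher in L (against 17.8%). The GSC-like counts of 0 are given without a share of all bins and are not read as particular to tRNA bins.

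Rescaled signal was also compared by library. The median tRNA bin exceeded the median of other arm bins 1.22 times in the E library of GSC1, 1.24 times in GSC2, 1.21 times in CySC1 and 1.11 times in CySC2. In the L libraries the ratio was 0.99, 0.94, 1.00 and 0.97. For GSC1 these were medians of 7.81 rescaled RPKM (reads per kb per M reads) in tRNA bins and 6.38 in other arm bins in E, and 5.72 and 5.77 in L. In EM it was 1.04 in GSC1, 1.11 in GSC2 and 0.98 in CySC2, and in ML 0.97, 0.89 and 1.10. The library labelled ML of CySC2 thus had nearly the ratio of its E library. The EM and ML libraries, which log2(E/L) leaves out, were then added. In GSC1, 53.8% of tRNA bins had their highest rescaled signal in E (exact binomial 95% interval 45.7% to 61.8%), against 41.3% of other arm bins. In GSC2 it was 48.1% (40.0% to 56.2%) against 40.1%, and in CySC2 it was 37.2% (29.6% to 45.3%) against 28.5%. The intervals cover counting of bins only, and neighbouring bins are not independent. The L fraction was highest in 7.1% of tRNA bins against 15.7% of other arm bins in GSC1, in 0 of 156 against 2.29% in GSC2, and in 7.7% against 19.3% in CySC2. In CySC2, whose EM and ML order is in doubt, the library labelled ML led in 49.4% of tRNA bins and that labelled EM in 5.8%, against 42.7% and 9.5% of other arm bins. Scaled on autosomal arm bins, these were 36.5% and 13.5% of tRNA bins. The ML library of GSC2 had 0.516 M reads, the fewest of the 14.

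**Figure D3:**
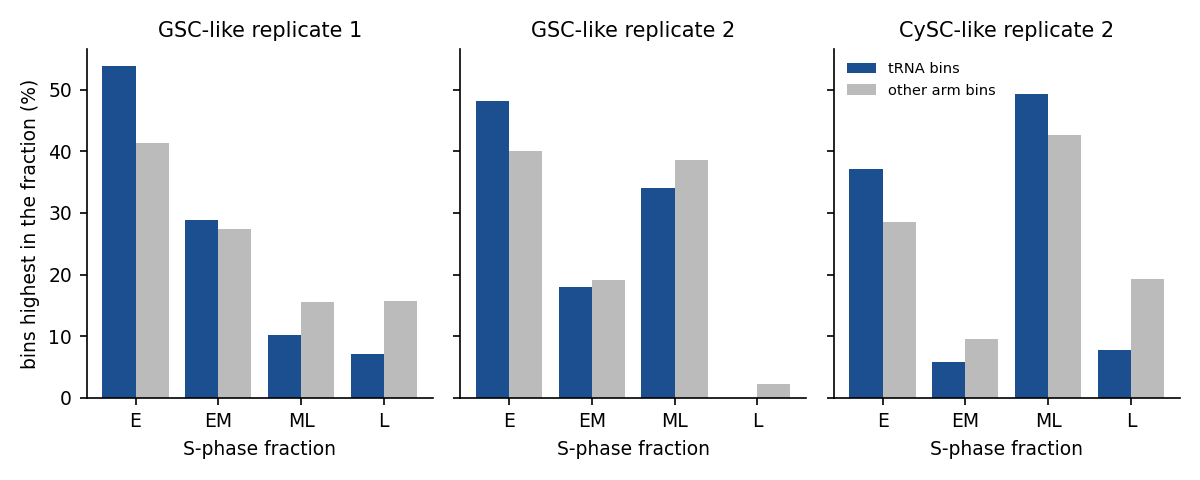
Percentage of 10 kb bins whose highest rescaled signal is in each of the 4 S-phase fractions, for the 3 replicates with all fractions, as labelled. Blue bars are the 156 tRNA bins and grey bars the 11181 other arm bins. The blue bar is taller than the grey bar in E in each replicate (53.8% against 41.3%, 48.1% against 40.1%, 37.2% against 28.5%) and shorter in L.

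Grouped by the amino acid they carry, tRNA families overlapped widely. A bin with genes of several families counts in each. Among families with at least 5 bins, the earliest by median in GSC-like were elongator Met with 1.16 (6 bins), Trp with 1.16 (5 bins) and Phe with 1.11 (6 bins). All 5 Trp bins were called higher in E in GSC-like by limma, as were 3 of 6 Met and 3 of 6 Phe bins, against 36.5% of all tRNA bins and 17.9% of all bins. These calls are among the 57, whose number fell to 8 with scaling by the median bin and to 0 without the pairing. The latest by median in GSC-like were Gly with 0.33 (15 bins), Thr with 0.51 (11 bins) and Gln with 0.51 (8 bins). In CySC-like the earliest were Trp with 1.03, Asn with 1.00 (5 bins) and Met with 0.85, and the latest were Gln with -0.20, Tyr with 0.23 (6 bins) and Pro with 0.36 (12 bins). Within a family the range was wider than these differences: Lys bins ran from -1.90 to 1.82 in GSC-like and Gly bins from -1.09 to 1.44.

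**Figure D4:**
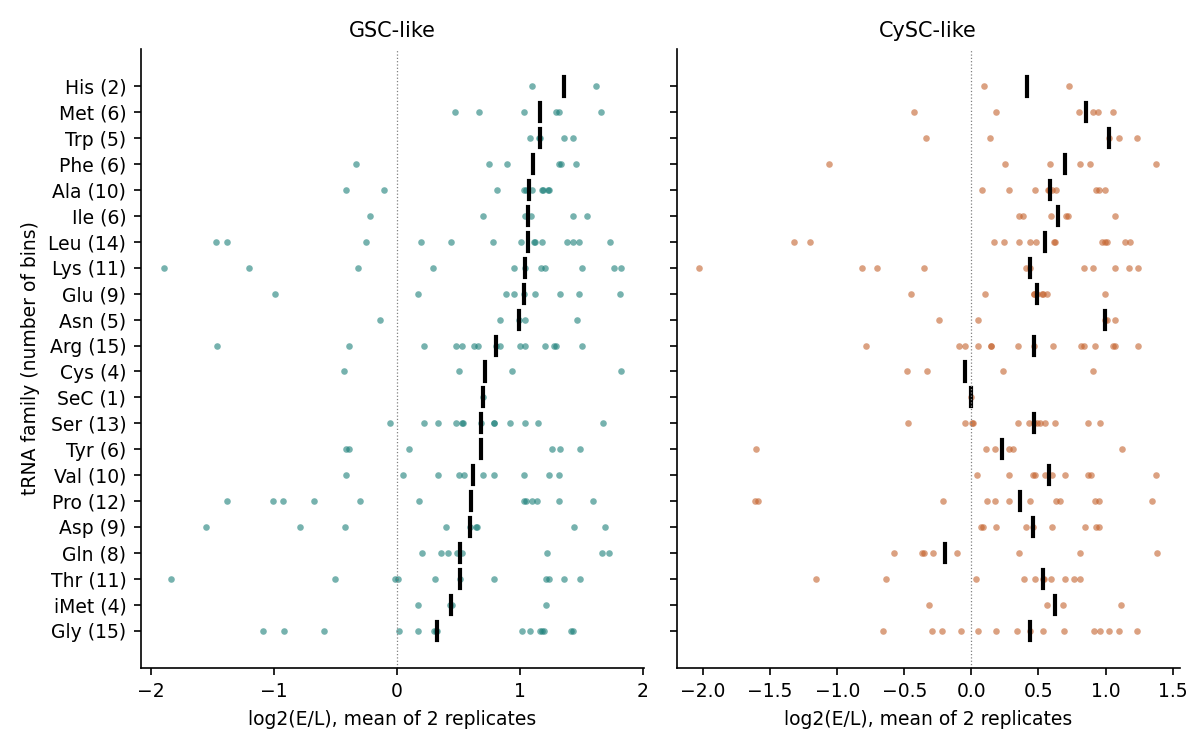
Log2 ratio of early to late signal, mean of 2 replicates, for tRNA bins grouped by amino acid (the number of bins in brackets), ordered by the GSC-like median. Points are bins, black bars are medians, and left and right panels are GSC-like and CySC-like. Families overlap, and in GSC-like medians run from 0.33 for Gly to 1.36 for His, which has 2 bins.

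Genes of identical sequence often lay in bins of unlike timing. There were 24 sets of 5 or more identical genes, of which 16 lay in 4 or more bins, and 11 of these 16 ran from below 0 to above 0 in GSC-like, as did 6 in CySC-like. Of all tRNA bins, 74.4%, 78.8%, 70.5% and 82.1% were above 0 in the 4 replicates, and this zero rests on the scaling. Whether identical genes differ in this from other tRNA genes was not tested. The 12 identical Asp-GTC-1 genes, in 9 bins on 3 chromosomes, ran from -1.55 to 1.69 in GSC-like and from 0.07 to 0.95 in CySC-like. The 13 Lys-CTT-1 genes in 7 bins ran from -1.20 to 1.82 in GSC-like, and the 6 Glu-TTC-1 genes in 4 bins from -0.99 to 1.82. Other sets kept to a narrow range. The 9 Glu-CTC-3 genes, in 4 bins of 1 chromosome, ran from 0.89 to 1.12 in GSC-like, and the 6 Trp-CCA-2 genes, in 4 bins on 2 chromosomes, from 1.08 to 1.44.

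The 6 largest clusters were early in most replicates. The largest, 18 genes at chr3R:17610001-17670000 with 10 Ala-AGC and 4 Pro-TGG genes, had means of 0.66 and 1.62 in GSC-like, against 0.48 and 0.80 in CySC-like. A cluster of 17 genes at chr2R:6140001-6180000, with 6 Asn-GTT, 5 Arg-ACG and 5 Lys-CTT genes and some of them inside EcR, the ecdysone receptor gene, had 0.76 and 1.85 in GSC-like, against 1.17 and 0.91 in CySC-like. Its bin at 6170001 was 1 of the 2 called higher in E in CySC-like (mean 1.24, limma adjusted p = 0.0484). The 9 Glu-CTC genes at chr3L:1370001-1410000 had 1.03 and 0.97 in GSC-like but 0.11 and 0.68 in CySC-like. The 8 genes at chr2R:13430001-13440000, with 6 Ile-AAT genes inside ATP8A, had 0.95 and 1.91 in GSC-like, against 0.21 and 0.50 in CySC-like. The 9 Arg-TCG and Ser genes at chrX:14010001-14030000 had -0.26 in GSC1 and 1.33 in GSC2, while CySC1 and CySC2 had 0.27 and 0.71. The 8 genes at chr2R:19710001-19730000, which include 2 initiator Met genes, stood near 0 in GSC-like, 0.11 and -0.15, and at 0.31 and 0.64 in CySC-like. The bin of these initiator Met genes also holds a 5S ribosomal RNA gene. None of these 6 clusters held a bin called between the cell types.

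The earliest tRNA bin of GSC-like, chr3L:3090001-3100000, held 4 Cys-GCA-1 genes and 2 Lys-CTT-1 genes inside Cht7, a chitinase gene. Its rescaled signal was 10.6 RPKM in E and 4.15 in L of GSC1, and 11.1 and 2.15 in replicate 2. In CySC-like it was 11.0 in E and 5.21 in L of replicate 1, and 9.46 and 5.59 in replicate 2. E exceeded L in every replicate, and log2(E/L) was 1.82 ± 0.69 (SD, n = 2) in GSC-like (limma adjusted p = 0.00577) and 0.91 ± 0.23 (SD, n = 2) in CySC-like (adjusted p = 0.135). The next 3 in GSC-like held Glu-TTC-1-2 inside mrj with 1.82, Lys-CTT-1-10 with 1.76 and Leu-TAA-4-1 inside jar, the myosin VI gene, with 1.73. Of the 4 earliest bins of CySC-like, 3 were also above 1.5 in GSC-like. They held Gln-CTG-2-1 and Pro-CGG-3-1, in neighbouring bins inside ec on X, with 1.38 and 1.35 in CySC-like, and the 3 genes of the bin at 6170001. The remaining one held Phe-GAA-1-8 and Val-AAC-1-1 inside Sulf1, a sulfatase gene, with 1.38 ± 0.19 (SD, n = 2) in CySC-like (limma adjusted p = 0.0275) and 1.32 in GSC-like.

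Lys-TTT-2-5, at chr3R:12130001-12140000 between coding genes, was the latest tRNA bin in both cell types. In GSC1 its rescaled signal was 2.29 RPKM in E, then 4.46 in EM, 7.74 in ML and 6.72 in L, and in replicate 2 it was 0.978, 1.41, 8.56 and 5.14. In CySC-like it was 2.43 in E and 10.3 in L of replicate 1, and 3.01 and 12.4 in E and L of replicate 2, whose libraries labelled EM and ML had 7.01 and 3.71. L exceeded E in every replicate, with log2(E/L) of -1.90 ± 0.55 (SD, n = 2) in GSC-like (limma adjusted p = 0.00677) and -2.03 ± 0.03 (SD, n = 2) in CySC-like (adjusted p = 0.00368). Thr-TGT-1-1, 70 kb away in the same late region, had -1.83 in GSC-like (adjusted p = 0.00761) and -1.16 in CySC-like (adjusted p = 0.0801). Leu-CAA-2-3 had -1.47 and -1.20 in the 2 cell types. The others of the 4 latest bins of CySC-like, those of Pro-CGG-2-2, Tyr-GTA-1-9 and Pro-CGG-1-1, had -1.61, -1.61 and -1.59 there and -0.30, -0.39 and -0.67 in GSC-like. The bin of Leu-TAA-3-1 was also called higher in L in CySC-like, with -1.33 there (limma adjusted p = 0.0478) and 0.44 in GSC-like.

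The 12 tRNA bins below 0 in all 4 replicates held 14 genes, and 10 of the 12 held a lone tRNA gene, as did 85 of all 156 tRNA bins. The 12 bins were named because they form the late end of the family, after their values were seen. Those of Lys-TTT-2-5, Thr-TGT-1-1, Leu-CAA-2-3, Arg-CCT-1-2 with Arg-CCT-1-3, and Lys-CTT-1-11 were called higher in L in GSC-like by limma. The Arg-CCT bin had -1.42 and -1.51 in GSC-like (adjusted p = 0.0177) and -1.15 and -0.41 in CySC-like. Lys-CTT-1-11 had -1.14 and -1.26 in GSC-like (limma adjusted p = 0.0338) and -0.64 and -0.07 in CySC-like. The bins of Tyr-GTA-1-9, Pro-CGG-2-2 and Pro-CGG-1-1 were called in CySC-like instead, and in each of these CySC1 was the lowest replicate. The difference between cell types passed the test in none of them. The remaining 4 bins, of Glu-TTC-1-3, Cys-GCA-3-1, Lys-TTT-2-1 and the pair Phe-GAA-1-6 and Phe-GAA-1-7, were called in neither cell type. At the other end, 6 bins were above 0.8 in every replicate, a level also chosen after the values were seen. The share of all bins past this level was not counted, so the 6 are named only as tRNA bins early in every replicate. They held Asn-GTT-1-1 to Asn-GTT-1-3 and the 3 genes at 6170001 in the same cluster, Leu-CAG-1-1, Lys-CTT-1-10, Leu-TAA-4-1, and the pair Phe-GAA-1-8 and Val-AAC-1-1. Identical copies stood at both ends, as Lys-CTT-1-10 had 0.95, 2.58, 1.38 and 0.96 in the 4 replicates against -1.14, -1.26, -0.64 and -0.07 for Lys-CTT-1-11.

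Whether tRNA genes replicate at different times in the 2 cell types was asked with the value in GSC-like minus that in CySC-like. No tRNA bin passed limma's adjusted p of 0.05: 0 were earlier in GSC-like, against 0.00728% of all bins, and 0 were later, against 0.0946%. Of arm bins, where the tRNA genes lie, 0.00882% and 0% were called. Without adjustment, 7 were earlier (4.49%, against 6.84% of all bins) and 3 later (1.92%, against 2.84%), and limma voom on recovered reads also called 0 in each direction. The standard error of a difference was 0.60 at the median tRNA bin, and the largest difference, 2.02, did not pass the test with 2 replicates a side. Both GSC-like replicates were above both CySC-like replicates in 43 tRNA bins (27.6%, against 25.7% of all bins) and below them in 14 (8.97%, against 15.2%). In 3 tRNA bins both GSC-like replicates were above 0 and both CySC-like replicates below it (1.92%, against 3.94% of all bins), and in 5 the signs were reversed (3.21%, against 3.33%). Without GSC1, 1 tRNA bin was called earlier in GSC-like, against 1.59% of all bins.

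**Figure D5:**
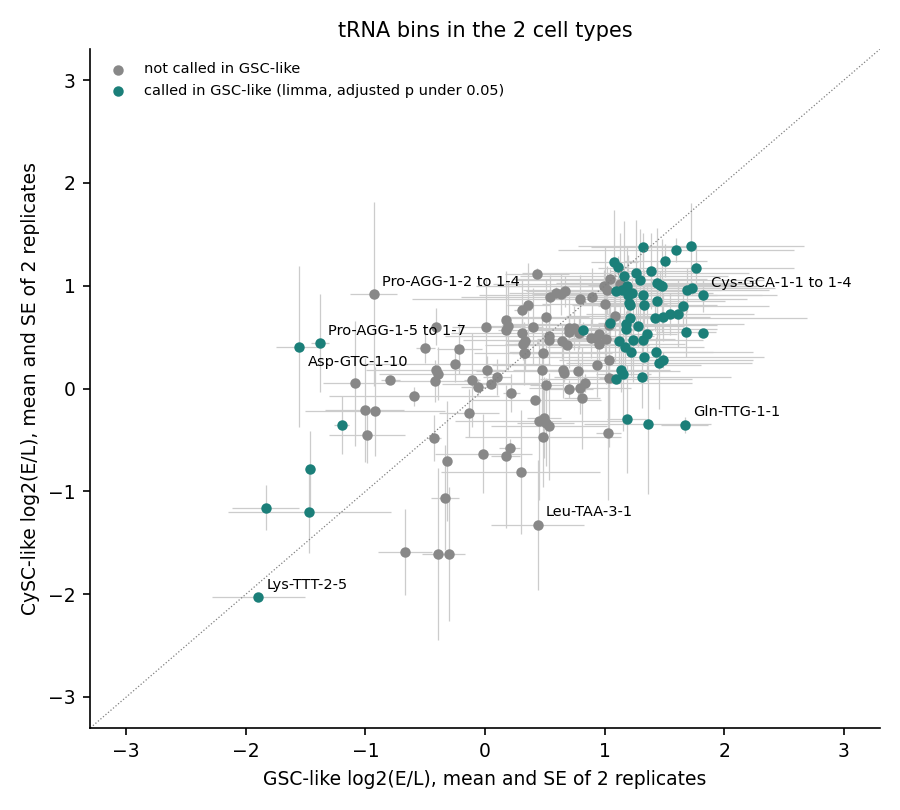
Log2 ratio of early to late signal in GSC-like (horizontal) and CySC-like (vertical) for the 156 tRNA bins, each point the mean of 2 replicates with the standard error as grey bars. Green points are the 64 bins called in GSC-like, and the dotted line marks equal values. Most bins lie above 0 on both axes, Lys-TTT-2-5 is lowest on both, and Gln-TTG-1-1, Asp-GTC-1-10 and 2 Pro-AGG bins lie farthest from the line.

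The bin with the largest difference in either direction, chr3L:11800001-11810000, held Gln-TTG-1-1 between coding genes. Its rescaled signal was 8.07 RPKM in E and 2.85 in L of GSC1, and 6.51 and 1.72 in replicate 2. In CySC-like it was 4.74 in E and 6.42 in L of replicate 1, and 5.76 and 6.98 in replicate 2. E led in both GSC-like replicates and L in both CySC-like replicates, with a difference of 2.02 ± 0.61 (SE) and an adjusted p of 0.328 by limma (unadjusted p = 0.00189). Leu-TAA-3-1, at chr2L:15130001-15140000, was earlier in GSC-like by 1.76 ± 0.63 (SE, limma adjusted p = 0.356), and the Trp-CCA-1-1 and Trp-CCA-1-2 bin inside Lrt by 1.70 ± 0.62 (SE). The bin of Gly-GCC-1-8 was earlier in GSC-like by 1.48 ± 0.60 (SE, adjusted p = 0.417).

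In the opposite direction, the 4 bins with the largest difference lay at 2 places, one on 2L and one on 3L, each with Pro-AGG genes. The genes that read with the anticodon AGG are 7 identical Pro-AGG-1 copies in 3 bins, and all 3 bins were below 0 in both GSC-like replicates. Their GSC-like median of -1.01 was the lowest of the 24 sets of identical genes, a set singled out after its values were seen. At chr3L:13210001-13220000, with Pro-AGG-1-5 to Pro-AGG-1-7 and Leu-CAA-2-2, the rescaled signal was 2.67 RPKM in E and 6.75 in L of GSC1, and 0.978 and 2.86 in replicate 2. In CySC-like it was 9.79 in E and 5.15 in L of replicate 1, and 5.34 and 5.48 in replicate 2. The CySC-like replicates thus disagreed, log2(E/L) being 0.91 and -0.04, against -1.31 and -1.46 in GSC-like, with a difference of -1.82 ± 0.63 (SE, limma adjusted p = 0.345). At chr2L:14590001-14600000, with Pro-AGG-1-2 to Pro-AGG-1-4, the GSC-like replicates had -0.73 and -1.13, against 1.82 and 0.02 in CySC-like, a difference of -1.85 ± 0.64 (SE, adjusted p = 0.345). Asp-GTC-1-10 inside caps, 30 kb from the first of these bins, had -1.36 and -1.74 in GSC-like, against 1.19 and -0.38 in CySC-like, a difference of -1.96 ± 0.64 (SE, adjusted p = 0.345). Near the other, at chr2L:14530001-14540000, Gly-GCC-1-7 and Gly-GCC-2-1 differed by -1.14 ± 0.65 (SE, adjusted p = 0.581). In each of these 4 bins CySC1 was well above replicate 2.

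The bins of the special tRNAs covered only part of the range of the family and did not reach its late end. Initiator Met genes, which start translation, lay in 4 bins with log2(E/L) of 1.21, 0.45, 0.43 and 0.17 in GSC-like and, for the same bins, 0.68, -0.31, 1.12 and 0.57 in CySC-like. The bin with 0.17 in GSC-like also holds a repeated 5S ribosomal RNA gene. Its rescaled signal in GSC2 was 15.1 RPKM in E and 14.0 in L, against medians of 5.36 and 2.34 over tRNA bins. The part of the repeat in this value was not tested. The bin of the selenocysteine gene, which decodes a stop codon in selenoprotein messages, had 0.70 ± 0.29 (SD, n = 2) in GSC-like and 0.00 ± 0.13 (SD, n = 2) in CySC-like. The 5 Trp bins had 1.08 to 1.44 in GSC-like and -0.34 to 1.23 in CySC-like.

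Transcription direction bore no clear relation to the local timing gradient. A gene was counted as co-directional when it was transcribed from earlier towards later replicating sequence, judged from the 5 bins on either side. This held for 48.3%, 47.2%, 55.9% and 52.1% of the 290 tRNA genes in the 4 replicates. Coding genes gave between 49.2% and 50% in each replicate. With the slope taken over 10 bins on either side, the tRNA values were 51.7%, 51.0%, 52.8% and 51.7%.

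Genes that act with tRNAs were set beside them. The 20 cytoplasmic aminoacyl-tRNA synthetase genes, which charge tRNAs with amino acids, lay in 20 bins, of which limma called 12 on the E side and 0 on the L side in GSC-like, where 20.2% of arm bins were on the E side and 8.19% on the L side. These background shares hold for the GSC-like counts of the other lists too. Their medians were 0.52, 1.80, 0.67 and 0.45 in the 4 replicates. GluProRS, with 1.69 and 1.81, and alpha-PheRS, with 1.70 and 1.98, were early in both GSC-like replicates. Of 16 genes for RNA polymerase III transcription and tRNA processing, 7 bins were called on the E side in GSC-like and 0 on the L side. In CySC-like 0 synthetase bins were called, and 1 bin of the second list was higher in L. Of all bins, 0.989% were called higher in E in CySC-like and 10.2% higher in L. The 1 late bin was that of Maf1, a repressor of polymerase III, and it is pericentromeric by the limits used here. Other polymerase III transcripts, 109 genes of which most are 5S ribosomal RNA copies, lay in 11 bins, 5 called higher in E in GSC-like (against 20.2% of arm bins) and 4 shared with tRNA genes. The called bins include neighbouring bins of the 5S array on 2R, with 0.91, 0.92 and 0.97 in GSC-like, which are not independent. Ribosomal protein genes lay in 90 bins, 41 called in GSC-like on the E side and 1 on the L side (against 20.2% and 8.19% of arm bins), and medians were 0.38, 1.87, 0.84 and 0.39. The tRNA bins' medians of 0.38, 1.01, 0.40 and 0.45 were lower than these in GSC2 and CySC1. The bins of synthetase and ribosomal protein genes held 4.05 and 3.58 coding gene starts on average, against 1.13 in tRNA bins. No bin of these 4 lists was called between the cell types.

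Library depth ran from 0.516 to 144 M reads, and GSC2, the only one sequenced as paired ends per its labels, had 0.516 to 7.05 M. In the median arm bin this left 69 reads in its L library and 306 in its E library, with a counting error of 0.17 and 0.08 on the log2 scale. The L library of GSC1 was the most uneven, with a median step of 0.69 (log2) between neighbouring 3 kb windows, against 0.19 to 0.57 in the others. Its part in the GSC-like values was not tested. Over the tRNA bins the replicates differed by a median of 0.76 for GSC-like tumours and 0.47 for CySC-like tumours.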

How the data were processed

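Repli-seq values of 14 libraries were taken from one table of RPKM, which the authors made for windows of 3 kb at steps of 1 kb. The deposited file does not name this unit, and the values gave it. Bowtie2 2.4.5 and dm6 are named per the submitters' processing notes, and the treatment of duplicates and repeats is not given in the sources used here. Sequence lengths in the table equal those of Release 6, so genes came from Ensembl release 115 and sequences from RefSeq in that build. In 3 kb windows, 100% of values came out as whole reads (within 0.01 of a read), which gave the depths.

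Windows were averaged by centre into 13757 bins of 10 kb, libraries were rescaled to an equal mean, 0.1 RPKM was added and log2(E/L) taken per replicate. This log2 scale understates changes of low bins. A bin with no reads in at least 4 of the 8 libraries of E or L was dropped (12 bins), and all 156 tRNA bins passed. Pericentromeric bins were 2L from 22 Mb, 2R to 6, 3L from 23, 3R to 5 and X from 22. The table of all bins was fitted in limma 3.58.1 (R 4.3.3; lmFit, eBayes with a trend on mean signal), with both cell types sharing the spread, Benjamini-Hochberg over all bins and a threshold of 0.05. The fit was tested on simulated data.

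E and L were paired by replicate because the design text has each replicate sorted into its fractions; their deviations from the group means correlated across bins at 0.52 in GSC-like and -0.06 in CySC-like. Labels call the replicates biological and say no more of their origin. The named bins were the 6 largest clusters, the 4 highest and 4 lowest bins per cell type, the 4 largest differences each way among bins whose replicates did not overlap, and the bins of initiator Met, selenocysteine and Trp genes. Members, lists and rules were chosen with earlier results of these data known. Alternatives were other scalings, pseudocounts, filters, bin sizes, a GC correction, omission of each replicate, other blocks and limma voom on recovered reads.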

Additional observations from a re-analysis of the deposited data

Results flagged for a closer look

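In 3 of the named tRNA bins every replicate of one cell type had the opposite sign of log2(E/L) to every replicate of the other. The bin of Gln-TTG-1-1 had a GSC-like minus CySC-like difference of 2.02 and kept the opposite signs under all 4 scalings tried, its GSC-like replicates being 1.1 to 2.07 and its CySC-like replicates -0.52 to -0.24. The bin of Leu-TAA-3-1 differed by 1.76, but GSC-like replicate 2 was only 0.05 and fell to -0.73 with scaling by the median bin and -0.59 with scaling on autosomal arm bins. The bin of Pro-AGG-1-2 to Pro-AGG-1-4 differed by -1.85, with CySC-like replicate 2 at 0.02, and at -0.12 and -0.07 under the same 2 scalings. In limma's test of the difference none of the 3 passed (limma adjusted p = 0.328, 0.356 and 0.345). Of all 156 tRNA bins, 3 were above 0 in both GSC-like and below 0 in both CySC-like replicates (1.92%, against 3.94% of all bins), and 5 the reverse (3.21%, against 3.33%).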

How the results depend on the processing

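The excess of tRNA bins over other bins kept its direction under every alternative run. In GSC-like (0.44) it moved by more than the replicates' SD only against bins with a coding gene start (0.077), and in CySC-like (0.40) with 50 kb bins (0.31), each tRNA gene counted once (0.50), pericentromeric bins left out (0.25), the 3 kb window (0.48) and against bins with a coding gene start (0.13). The excess over flanking bins in CySC-like (0.16) was 0.23 with each gene counted once and 0.21 in the 3 kb window. Leaving out a replicate gave 0.32 to 0.55 and 0.36 to 0.45 for the first excess, and 0.12 to 0.22 and 0.12 to 0.20 for the second.

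Counts of called bins moved far more. Where no share of all bins stands beside a count below, it shows only how far calls moved. Such a count is not a result particular to tRNA bins. With 5 kb or 50 kb bins the number of tRNA bins differs, so those counts cannot be set directly against the others. GSC-like higher in E (57) became 8, 15, 0 and 9 with scaling by the median bin, on autosomal arm bins, no replicate block and limma voom, and 0 to 69 without a replicate. GSC-like higher in L (7) became 11, 13 and 0 under the first 3, and 0 to 8 without a replicate. CySC-like higher in E (2) became 1 with each of the 3 other scalings and without the filter, 0 with 50 kb bins and with no replicate block, 37 with limma voom (against 13.5% of all bins) and 0 to 25 without a replicate. CySC-like higher in L (5) became 3 by the median bin, 2 as deposited, 3 in 5 kb bins, 0 with no replicate block, 8 with limma voom and 0 to 8 without a replicate. Between cell types 0 to 1 bin was called without a replicate and 0 otherwise. A replicate left out leaves 1 sample, assumed to vary like the other group. Same-numbered replicates of the cell types deviated oppositely (r = -0.25), and the labels do not say that their numbers pair anything. A replicate block across cell types gave 1 and 3 calls in CySC-like (42 and 6 in GSC-like). The crossed block, chosen after seeing the data, gave 11 and 8 (68 and 10). Scaling by the median bin moved the median log2(E/L) of all bins by -0.05, -0.78, 0.06 and -0.14 in the 4 replicates, and scaling on autosomal arm bins by -0.16, -0.63, -0.09 and -0.09.

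The share of bins highest in E in GSC-like (51.0%) was 46.5% with autosomal scaling and 48.1% to 53.8% without a replicate. The co-directional share was 51.4% over 10 bins and 47.0% with genes of a bin and strand counted once in GSC-like (47.8%), 51.3% with the latter in CySC-like (54.0%), and 47.2% to 48.3% and 52.1% to 55.9% without a replicate. The causes were not tested. Depth limits GSC-like replicate 2 most. For the named bins, 566 alternative values kept their side of the threshold or moved by under 1 SD, 62 lost a call, 10 gained one, 22 moved further and 0 changed sign past the test. The 566 include differences between cell types, which were all uncalled to begin with, so keeping their side of the threshold says little.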
